A study of Mus musculus with 2 samples.

Results

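The genes described here are 10 neutrophil genes, named by symbol from the 32285 genes of the count tables and all found in both libraries. They encode proteins of the specific granules, or proteins made over the same stretch of neutrophil development, and the pair of calgranulins S100a8 and S100a9. Neutrophils fill their granules in waves as they mature in the bone marrow. The proteases of the azurophil granules (Elane, Prtn3, Ctsg, Mpo) are transcribed first, in the promyelocyte. The specific granule proteins follow around the last divisions, under transcription factors of the C/EBP family, of which C/EBP epsilon (Cebpe) is best known for this step. The gelatinase granule genes (Mmp8, Mmp9) come later still. S100A8 and S100A9 pair into calprotectin, an abundant cytosolic protein that binds zinc, manganese and calcium.

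The cells were mouse CD45.2+Kit+ bone marrow cells taken 10 weeks after transplantation, as 1 library labelled control and 1 labelled Utx-deleted. Utx, or Kdm6a, is a histone H3 lysine 27 demethylase. The labels give no strain, no deleting Cre or promoter, no number of animals and no further genotype of either group, so what both groups share beyond the transplantation is not known here. Each library was made with 10x 3′ chemistry and antibody tags, and unique molecular identifiers (UMIs) were counted as molecules. With 1 library a group there was no replicate and no test, and a difference below is a difference between these 2 libraries. All intervals given are exact 95% ones (Poisson or binomial) that cover counting error only, and the limit given for a count of 0 is 3 counts over the total.

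Filtering left 7011 control and 7206 Utx-labelled cells, at medians of 12367 and 11816.5 gene UMIs a cell. Kdm6a itself stood at 110 and 103 UMIs per 1000000 gene UMIs (CPM, the unit of all levels below), and 3′ counting does not show whether an inner exon is missing, so the label was not checked by it. Each library held 2 hashtag populations, whose meaning the labels do not give, and 204 control and 451 other kept cells carried both hashtags. The libraries shared 17 barcodes, of which 0 had identical counts. Most kept cells, 5495 and 5947, fell in clusters with neutrophil progenitor or maturing neutrophil markers. The sort was for Kit, but the CD117 (Kit) tag made up 6.70% of antibody tag UMIs in the least mature eighth of control neutrophil-lineage cells and 0.357% in the most mature, and 12.2% and 0.298% in the other library. Most clusters of maturing cells (9 of 10) held cells of 1 library at over 90%, adjusted for library size.

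The promoters of Fcnb, Ltf, S100a8 and S100a9 are printed because Fcnb was among the first to come on, Ltf came on late and the ratio of the other two differed between libraries. The sequences lie in the 250 bases before the RefSeq transcription start on GRCm38.p6, read 5′ to 3′ on the gene's strand, and stop where the GENCODE gene begins (229 bases for Ltf, 243 for Fcnb, 157 for S100a8 and 250 for S100a9). RefSeq gave a promoter for all 10 genes. Fcnb lies on chromosome 2 (minus strand, printed region chr2:28084886-28085128), Ltf on chromosome 9 (plus strand, chr9:111019042-111019270), and S100a8 (plus strand, chr3:90668821-90668977) and S100a9 (minus strand, chr3:90695722-90695971) on chromosome 3. Capitals mark matches, on either strand, to TTGCNNAA (a core motif bound by C/EBP proteins), GAGGAAGT (an ETS-type motif bound by PU.1) or TATAAA.
Fcnb: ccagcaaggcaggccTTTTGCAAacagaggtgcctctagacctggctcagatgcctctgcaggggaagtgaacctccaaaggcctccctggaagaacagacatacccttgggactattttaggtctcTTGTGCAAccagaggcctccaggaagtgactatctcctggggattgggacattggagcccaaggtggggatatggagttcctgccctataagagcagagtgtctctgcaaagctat
Ltf: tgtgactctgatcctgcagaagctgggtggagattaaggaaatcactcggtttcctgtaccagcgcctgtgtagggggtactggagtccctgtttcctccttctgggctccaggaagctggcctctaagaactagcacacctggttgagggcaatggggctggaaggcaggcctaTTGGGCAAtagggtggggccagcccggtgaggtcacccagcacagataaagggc
S100a8: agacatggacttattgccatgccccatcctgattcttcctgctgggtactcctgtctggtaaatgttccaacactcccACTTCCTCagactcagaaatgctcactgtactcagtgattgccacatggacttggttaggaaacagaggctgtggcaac
S100a9: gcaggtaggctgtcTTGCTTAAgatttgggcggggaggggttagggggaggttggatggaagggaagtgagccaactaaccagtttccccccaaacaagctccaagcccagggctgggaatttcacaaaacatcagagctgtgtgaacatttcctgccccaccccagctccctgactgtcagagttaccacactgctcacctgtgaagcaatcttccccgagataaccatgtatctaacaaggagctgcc

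In the full 300-base windows, which run 50 bases past the start, TTGCNNAA was found in 5 of the 10 promoters against 10.8% of all 32851 RefSeq mouse promoters. Fcnb and Ngp held 2 matches each, at -235 and -123 and at -138 and -11 from the start, Ltf 1 at -75, Lcn2 1 at -216 and S100a9 1 at -236. GAGGAAGT was found in S100a8 alone, at -172, against 3.20% of promoters. TATAAA was found in 4 of the 10 (Chil3, Cd177, S100a8 and S100a9) against 13.6%, and those of S100a8, at -30, and S100a9, at base 1 of its annotated start, lie past the printed stretches. No match of any motif overlapped a match of another. A match here describes letters and is not a mapped binding site.

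Positions are those of the GENCODE M21 annotation on GRCm38. Fcnb spans chr2:28076378-28084885 and Lcn2 spans chr2:32384633-32388252, both on the minus strand. On chromosome 9, Camp spans 109847379-109849617 (minus strand), Ngp 110419747-110423012 and Ltf 111019271-111042767 (both plus strand). Chromosome 3 holds S100a8 at 90668978-90670035 (plus strand), S100a9 at 90692632-90695721 and Chil3 at 106147554-106167564 (both minus strand). Chit1 spans chr1:134111242-134151540 (plus strand) and Cd177 spans chr7:24743983-24760311 (minus strand).

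Several of the genes are neighbours. S100a8 and S100a9 lie 22.6 kb apart on opposite strands of chromosome 3. Camp, Ngp and Ltf lie along chromosome 9, with 570 kb between Camp and Ngp and 596 kb between Ngp and Ltf. No annotated gene overlapped a member in that annotation. Chil3 shares 94.2% of its transcript bases with its paralog Chil4, and 89.8% over the last 400 bases. Chil3 counts are therefore uncertain where reads could have been assigned to either gene. Chil4 was listed with 50 and 30 UMIs in the kept cells, against 484411 and 625928 for Chil3.

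The 10 genes took 16.1% of all gene UMIs in kept control cells and 19.98% in those of the library labelled Utx-deleted. In neutrophil-lineage cells the shares were 24.6% and 27.7%, a difference of 0.17 on the log2 scale (1.13-fold). The size depended on the hashtag population: the log2 ratio was 0.48 in hashtag 1 cells and 0.078 in hashtag 2 cells over all kept cells, and 0.22 and 0.099 in the lineage. S100a9 alone made up 38.2% and 37.2% of the member UMIs there, S100a8 22.9% and 26.3%, Camp 18.4% and 17.0% and Ngp 9.81% and 9.61%. One UMI is counted per captured 3′ end, so these shares do not scale with transcript length. Fcnb, at 0.230% and 0.109% of member UMIs, and Chit1, at 0.00211% and 0.000505%, were the least abundant.

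To place the genes along maturation, neutrophil-lineage cells were ordered by 5 late genes (Mmp8, Mmp9, Retnlg, Cxcr2, Itgb2l) against 5 early genes (Elane, Prtn3, Ctsg, Mpo, Ms4a3), none of them a member, and divided into 8 bins of equal size over both libraries. Of the late genes, Itgb2l came on early here. It reached 50% of its highest bin at 1.66 and 1.76, inside the range of the members, and so helped set the order on which their onset is read. With the early genes alone, 38 of the 45 pairs of members came on in the same order in both libraries. The Gr1 tag, which recognises Ly6G and Ly6C on granulocytes, made up 11.2% of antibody tag UMIs in the first control bin and 80.2% in the last, and 20.9% and 82.6% in the other library. The members together took 10.8% of gene UMIs in the first control bin, 30.2% in the second and 23.1% in the eighth. They took 4.82%, 34.3% and 28.8% in the library labelled Utx-deleted. The step into the second bin was therefore the largest in both libraries, and the shares then stayed between 23.1% and 31.0% in control cells and between 28.8% and 34.6% in the other cells.

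**Figure D1:**
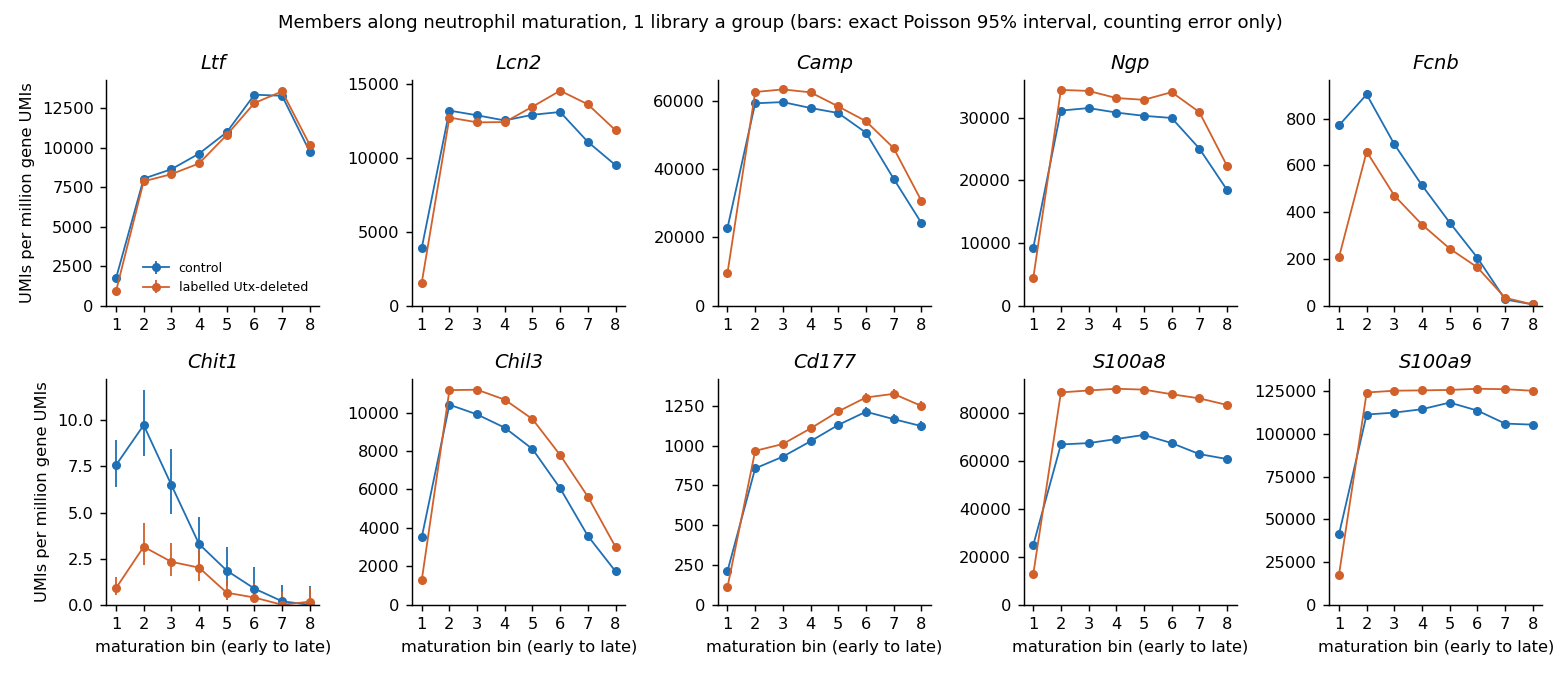
CPM (UMIs per 1000000 gene UMIs) of each of the 10 genes (y axis, from 0) in 8 maturation bins from early to late (x axis), for the control library (blue) and the library labelled Utx-deleted (orange), with exact Poisson 95% intervals of counting error. Fcnb and Chit1 are highest in bin 2 and near 0 in bin 8, Ltf and Cd177 are highest in bins 6 or 7, and S100a8 and S100a9 stay high to the end.

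Lactoferrin (Ltf), which binds iron, was, with Cd177, the slowest of the genes to reach its full level. In control cells it stood at 1723, 8049, 8647, 9634, 10991, 13375, 13305 and 9752 CPM over the 8 bins. Its levels in the library labelled Utx-deleted were 906, 7877, 8332, 9013, 10820, 12844, 13587 and 10188. The level was highest in bins 6 and 7 in both libraries, and from bin 2 on no bin differed by more than 0.10 on the log2 scale. Lipocalin 2 (Lcn2), which takes up bacterial siderophores, was already at 13216 in control bin 2 and 13121 in bin 6. In the other library it was highest in bin 6, at 14567.

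Camp and Ngp, a cathelicidin and a cathelicidin-related granule protein, were both near their highest level by bin 2 and lower again before the calgranulins were. Camp stood at 59417 CPM in control bin 2, 59776 in bin 3, 37273 in bin 7 and 24318 in bin 8, and at 62736, 63498, 46277 and 30838 in the other library. Its last bin was 40.7% and 48.6% of its highest. Ngp stood at 31116 and 34418 in bin 2 and at 18455 and 22304 in bin 8, or 58.6% and 64.8% of its highest bin. For Ltf and Lcn2 the last bin was 72.9% and 72.0% of the highest in control cells and 75.0% and 81.6% in the others.

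Ficolin B (Fcnb), a lectin of the innate immune system, and chitotriosidase (Chit1), a chitinase, were early and brief. Fcnb stood at 771, 904, 690, 514, 355, 204, 25.9 and 4.59 CPM over the 8 control bins. The library labelled Utx-deleted gave 207, 659, 471, 346, 243, 163, 32.9 and 4.29. Fcnb there was below the control value in bins 1 to 6 and above it in bin 7, where both were far below their highest. Bin 8, with 17 and 25 UMIs, gave no direction (interval of the log2 ratio -1.04 to 0.88). Chit1 was rare: its 362 lineage UMIs in the control library lay mostly in bins 1 to 3 (138, 119 and 57 UMIs), and the 112 of the other library gave 15, 33 and 30 there. In control bin 8 it had 0 UMIs, which at 3 counts allows up to 0.811 CPM.

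Chil3, a chitinase-like lectin, came down more slowly, from 10411 CPM in control bin 2 to 1739 in bin 8 and from 11171 to 3010 in the other library. From bin 3 its difference between libraries grew with each bin, from 0.18 on the log2 scale in bin 3 to 0.79 in bin 8. Cd177, a surface glycoprotein that binds PECAM-1, went the other way, from 856 in control bin 2 to 1212 in bin 6, and from 967 to 1325 in bin 7 in the other library. Its last bin still held 92.6% and 94.3% of its highest.

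S100a8 stood at 24911, 66915, 67476, 69172, 70901, 67478, 62895 and 60825 CPM over the control bins. The levels in the library labelled Utx-deleted were 12691, 88633, 89438, 90165, 89788, 87877, 86147 and 83406. From bin 2 on, the lowest value of the latter lay above the highest of the former. S100a9 ran from 105418 to 118347 in control bins 2 to 8 and from 124234 to 126415 in the other library. The bins are parts of the same 2 libraries, and how many of all genes show such a gap was not counted. The last bins of S100a8 and S100a9 held 85.8% and 89.1% of the highest in control cells, and 92.5% and 99.1% in the others.

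Cell cycle genes mark where these changes fall. The 8 cycle genes together (Mki67, Top2a, Ccnb1, Cdk1, Birc5, Ccnb2, Tpx2 and Cenpf) stood at 2937 CPM in control bin 2, 2954 in bin 3, 318 in bin 6 and 51.3 in bin 8. In the library labelled Utx-deleted they stood at 2513, 2663, 201 and 27.0. The full block of granule and calgranulin genes was thus on in the bins with the most cycle RNA. Fcnb was highest there, while Ltf and Cd177 were highest in bins 6 or 7, where cycle RNA was low.

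Since all 10 genes came on within the first 2 bins, those were split into 12 finer bins, a step added after the data were seen. Members took 0.646%, 0.709%, 1.10% and 3.12% of gene UMIs in fine bins 1 to 4 of the control library and 26.5% and 29.8% in bins 5 and 6. The shares in the library labelled Utx-deleted were 0.456%, 0.807%, 0.689%, 3.76%, 23.8% and 32.1%. The step from fine bin 4 to bin 5 was the onset in both libraries. Most cells lay in either a low or a high state: in fine bin 4 64.2% and 65.9% of cells had a member share under 1%, while in fine bin 5 89.9% and 77.5% had 10% or more. Fine bin 5 held 199 control cells but 40 of the other library.

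**Figure D2:**
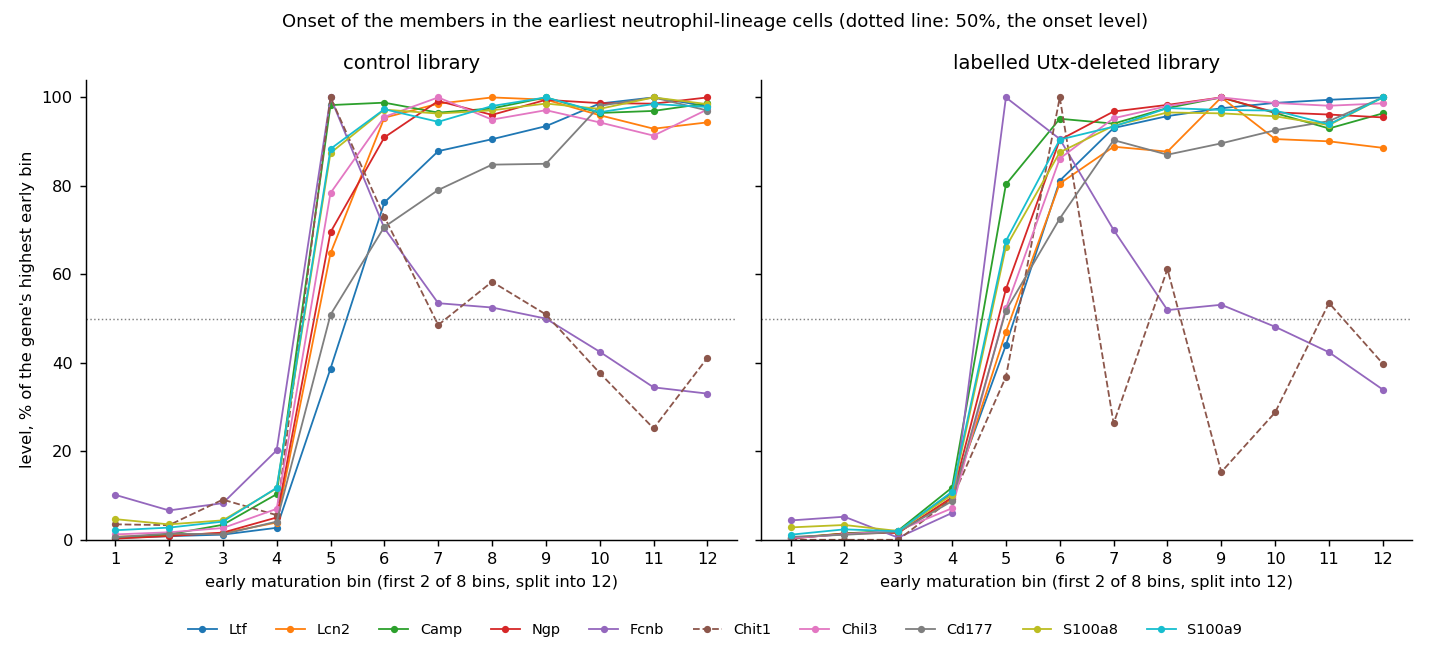
Level of each member as a percent of its highest early bin (y axis) over 12 fine bins of the least mature neutrophil-lineage cells (x axis), for the control library (left) and the library labelled Utx-deleted (right), with the 50% onset level dotted. Fcnb and Camp have the lowest crossing points in both panels, Ltf crosses among the last, and Fcnb is down to 33.0% and 34.0% by bin 12. Chit1 (dashed) rests on few UMIs.

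Onset was taken as the position, interpolated between fine bins, at which a gene reached 50% of its highest fine bin. That bin can lie below the highest level of a gene. Ltf stood at 8548 and 8060 CPM in its highest fine bin, against 13375 and 13587 in its highest of the 8 bins. In the control library the order was Fcnb at 4.37, Camp 4.45, Chit1 4.47, S100a9 4.50, S100a8 4.51, Chil3 4.60, Ngp 4.70, Lcn2 4.76, Cd177 4.98 and Ltf 5.30. In the library labelled Utx-deleted it was Fcnb at 4.47, Camp 4.56, S100a9 4.69, S100a8 4.71, Ngp 4.86, Chil3 4.95, Cd177 4.96, Lcn2 5.09, Ltf 5.16 and Chit1 5.21. Fcnb and Camp had the lowest values in both, and Ltf was last apart from the rare Chit1. The resolution of these positions is not known, so neighbours such as S100a9 and S100a8 are given no order. Of the 45 pairs of members, 36 had the same order in both libraries over the fine bins and 39 over the 8 bins.

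RNA of late neutrophils stood in some of these early cells. Mmp8 and Retnlg together, genes of the last bins, stood at 122 and 628 CPM in fine bins 4 and 5 of the library labelled Utx-deleted against 31.1 and 60.5 in the control library. The Gr1 tag made up 27.0% and 42.5% of antibody tag UMIs there against 8.75% and 15.9%, and 10.6% and 12.5% of the cells carried both hashtags against 5.66% and 10.1%. Without cells holding 5 or more UMIs of Mmp8 and Retnlg, 32 cells of that library were left in fine bin 5, its member share was 27.2% and 38 of 45 pairs kept the same order in both libraries. Leaving these cells out moved Ngp from 4.86 to 4.74, Chil3 from 4.95 to 4.82 and Chit1 from 5.21 to 4.89 in that library, so the order of genes between the first and the last is not settled there. Fcnb then crossed 50% at 4.48, Camp at 4.49 and Ltf at 5.18, which left Fcnb and Camp without an order and Ltf last.

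Cebpe, the regulator named above, had its own onset at 4.26 in control cells and 4.45 in the other library, against 4.37 and 4.47 for Fcnb, a gap too small to give an order in the latter. Gfi1, a repressor needed for neutrophil development, and Cebpa, the C/EBP factor of earlier progenitors, were already past 50% in fine bin 1. Mki67 reached 50% at 4.61 and 4.82 and Lyz2 (lysozyme) at 4.63 and 4.78, inside the range of the members, and Ly6g, the Ly6G antigen, at 6.55 and 6.50, after them.

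Some members were above background in sum before the onset. In fine bin 1, where Elane was highest, S100a8 stood at 3192 and 2583 CPM, S100a9 at 2464 and 1476 and Fcnb at 204 and 59.0. In non-neutrophil cells with under 3 UMIs of the late genes, which hold the background described below, the same genes stood at 351 and 701, 577 and 1026, and 1.63 and 3.39. These summed levels of S100a8, S100a9 and Fcnb were above the background in both libraries. In fine bin 1 81.4% and 85.4% of cells had a member share under 1%. The median cell of fine bin 1 had a member share of 0.320% and 0.215%. In the same background cells the median was 0.123% and 0.143%, and the 95th percentile 0.229% and 0.286%. In the control library the median cell of fine bin 1 thus lay above that percentile. In the other library it lay between the background median and that percentile. Single members were not compared cell by cell. Among cells under 1% in the whole first of the 8 bins, S100a9 stood at 532 and 549 and S100a8 at 764 and 859. Those cells were picked by a sum that holds both genes, so these values are not set against the background. The summed levels of Ltf in fine bin 1, at 33.7 and 32.6 against 40.5 and 79.4, were not above the background. Nor were those of Ngp, at 83.4 and 94.0 against 102 and 227.

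The ratio of S100a8 to S100a9 set these early cells apart. It was 1.30 (interval 1.25 to 1.34) in fine bin 1 of the control library, 0.758 in bin 2, 0.640 in bin 3 and 0.591 in bin 4. The corresponding ratios in the library labelled Utx-deleted were 1.75 (1.69 to 1.82), 1.02, 0.736 and 0.671. S100a8 therefore outnumbered S100a9 in the Elane-highest cells and was below it in all 8 coarse bins of both libraries. The ratio moved less over the 8 coarse bins, from 0.604 in the first to 0.577 in the last control bin and from 0.722 to 0.666 in the other library.

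**Figure D3:**
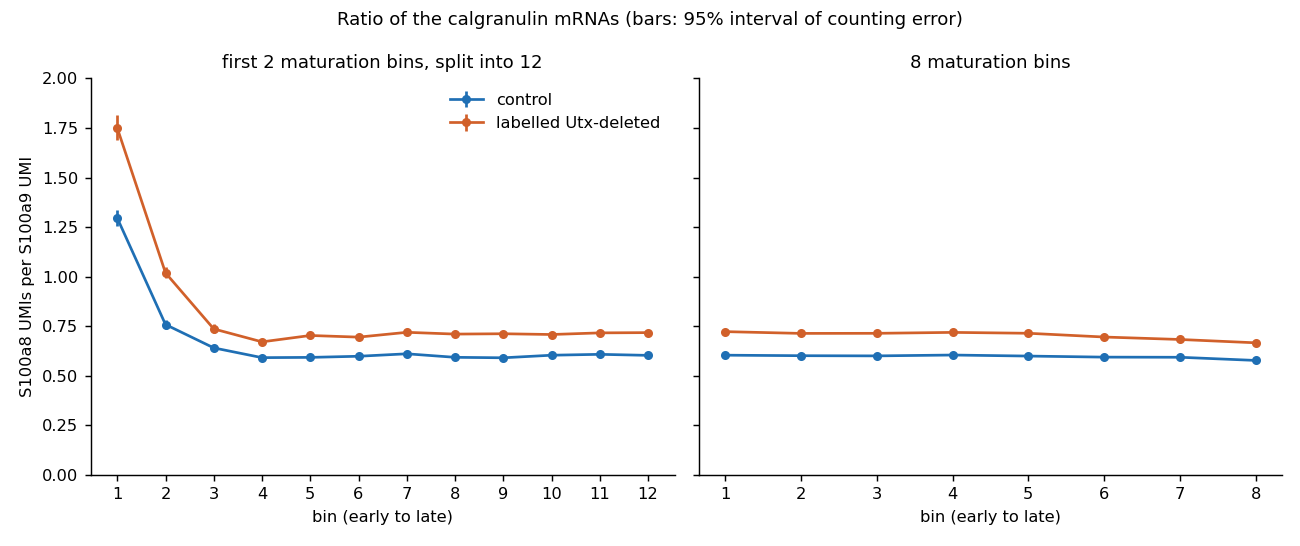
S100a8 UMIs per S100a9 UMI (y axis, from 0) by fine bin of the least mature neutrophil-lineage cells (left) and by the 8 maturation bins (right), for the control library (blue) and the library labelled Utx-deleted (orange), with 95% intervals of counting error. The ratio is above 1 in the first fine bin and lies higher in the library labelled Utx-deleted in each bin.

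Between the libraries, 1 of the 10 genes, Chit1, differed by 2-fold or more over all kept cells and over neutrophil-lineage cells. Of all genes with at least 100 UMIs, 6.75% passed 2-fold over all kept cells and 4.38% over neutrophil-lineage cells, and the members' count is to be read against these. At 1.5-fold 2 of 10, Fcnb and Chit1, passed in both, against 13.8% and 10.5% of all genes. In neutrophil-lineage cells Chit1 was lower by 1.88 on the log2 scale in the library labelled Utx-deleted (5.18 against 1.40 CPM), and its interval ran from -2.21 to -1.58. Fcnb stood at 565 and 303, a log2 ratio of -0.90. S100a8 stood at 56160 and 72723, a log2 ratio of 0.37. The other 7 genes lay between 0.03 (Ltf) and 0.18 (Cd177), with Lcn2 at 0.04, Camp 0.06, S100a9 0.13, Ngp 0.14 and Chil3 0.15.

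Over all kept cells, whose make-up also differed, the log2 ratio was 0.17 for Ltf, 0.51 for S100a8 and -0.76 for Fcnb. With TMM scaling, which centres the bulk of genes, the log2 ratio of the summed members moved from 0.31 to 0.44 over all cells and from 0.17 to 0.23 in the lineage. The median over all genes lay at -0.11 over all cells and at -0.05 in the lineage before that scaling. No member changed direction under it. In hashtag 2 cells alone, however, Ltf, Lcn2 and Camp were below the control over all kept cells (-0.08, -0.03 and -0.05), and in hashtag 1 cells alone Chit1 did not reach 2-fold there (-0.96).

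**Figure D4:**
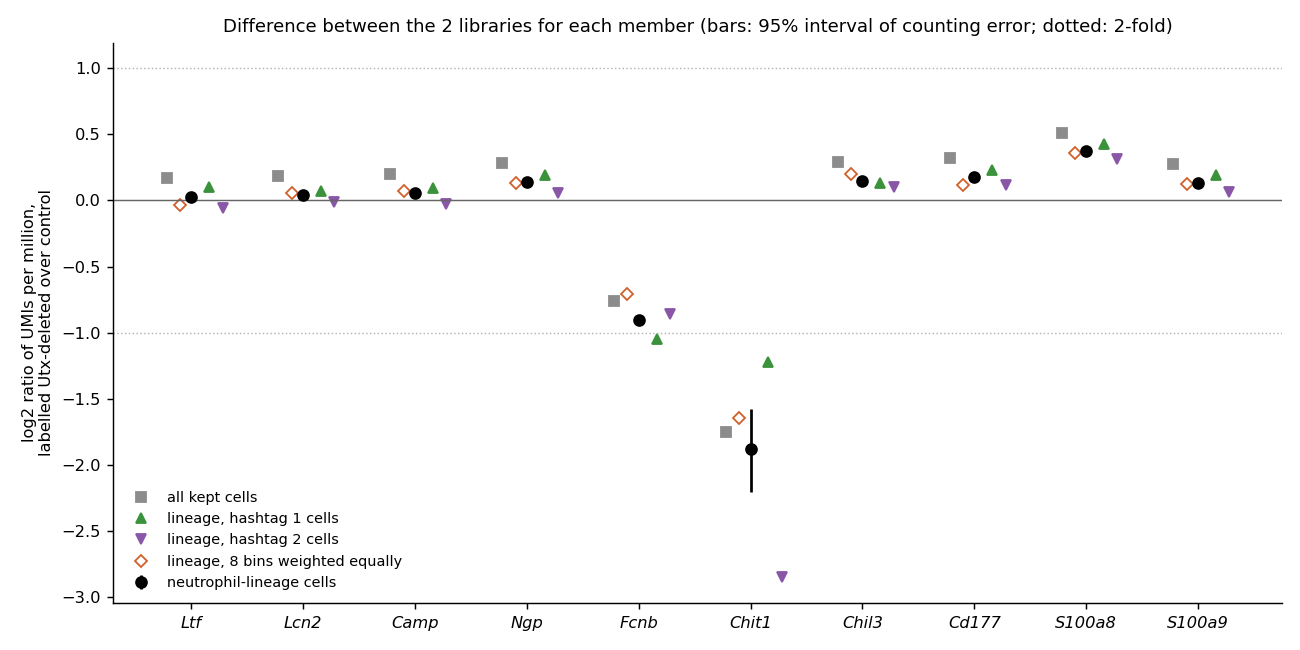
Log2 ratio of CPM, library labelled Utx-deleted over control (y axis), for each member in neutrophil-lineage cells (black, with 95% interval of counting error), all kept cells (grey), either hashtag population (triangles) and with the 8 bins weighted equally (open diamonds). Fcnb and Chit1 lie below 0 and S100a8 above 0 in each of these, while Ltf lies between -0.06 and 0.17.

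The hashtag populations give a second look at these differences, though they are not known to be replicates. In neutrophil-lineage cells the Fcnb ratio was -1.05 in hashtag 1 cells and -0.86 in hashtag 2 cells, while the 2 populations of 1 library differed by -0.04 (control) and 0.15 (the other library). The S100a8 ratio was 0.42 and 0.31, against 0.10 and -0.02 between populations of 1 library. Ltf (0.10 and -0.06), Lcn2 (0.07 and -0.01) and Camp (0.09 and -0.03) had opposite signs in the 2 populations in these sums over mixed stages. With the 8 bins weighted equally each had 1 sign in both populations: Camp 0.07 and 0.06, Lcn2 0.026 and 0.09, and Ltf -0.05 and -0.015. Single bins did not all share that sign. Of the 7 bins 2 to 8, Camp was higher in 7 in each population, Lcn2 in 4 and 6, and Ltf in 2 and 3. In maturing-neutrophil-like cells alone the signs were likewise shared, with Camp at 0.05 and 0.09, Lcn2 at 0.025 and 0.11, and Ltf at -0.04 and -0.04. The Chit1 ratio was -1.22 and -2.85, with 0.50 and -1.13 between populations.

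Weighting the 8 bins equally took out differences in the number of cells per bin. It did not take out differences in the mixture of cells within a bin, which were large in the first bin (given below). Fcnb then had a log2 ratio of -0.71, Chit1 -1.64, S100a8 0.36, Chil3 0.20, Ngp 0.13, S100a9 0.12, Cd177 0.11, Camp 0.07, Lcn2 0.06 and Ltf -0.04. S100a8 was higher in the library labelled Utx-deleted in bins 2 to 8, by 0.34 to 0.46, and in the same 7 bins within each hashtag, by 0.34 to 0.42 in hashtag 1 cells and 0.35 to 0.51 in hashtag 2 cells. Fcnb was lower in 6 of those 7 bins in hashtag 1 cells and in 5 of 7 in hashtag 2 cells. These counts take in bin 8, where the 2 libraries had only 17 and 25 Fcnb UMIs in all.

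In the first bin most members differed. There 7 of 10 genes were at least 2-fold lower in the Utx-labelled library, against 5.22% of all genes past 2-fold in either direction and 3.36% lower, and the other 3 were Ltf, Cd177 and S100a8. In bin 2 the one member past 2-fold was Chit1 (2.57% of all genes). In both bins Chit1 reached 100 UMIs only through the control library (138 and 15 UMIs, then 119 and 33), so its calls there were favoured by the minimum. In bins 3 to 8 it was 0 of the 8 or 9 members with enough UMIs, against 2.71%, 2.65%, 2.72%, 2.91%, 4.25% and 4.23% of all genes. The first bin also held different mixtures: 49.2% of its control cells but 18.0% of the others had members at 10% or more of their UMIs, and 41.2% and 70.6% had under 1%.

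Among the first-bin cells with members at 10% or more (376 and 120 cells), a split on the summed members that describes them and tests nothing, most of that difference was absent. S100a8 stood at 60386 and 62635 CPM, Ltf at 4246 and 4485, Ngp at 23118 and 23198 and Cd177 at 525 and 554. Chit1 stood at 18.7 and 5.39 (133 and 15 UMIs, the minimum of 100 again reached only through the control library, where it was high), a log2 ratio of -1.71 that describes these cells, and Fcnb at 1791 and 1068, a log2 ratio of -0.75. Chil3 stood at 8747 and 6765, and Lcn2 at 9766 and 7979. Among those with under 1% (315 and 471 cells), Fcnb stood at 45.7 and 10.5, a log2 ratio of -2.11, and S100a8 at 764 and 859. The fine bins did not all follow the first bin. In fine bin 4 Ltf, Lcn2, Cd177 and Ngp were higher in the library labelled Utx-deleted, with log2 ratios of 1.88, 1.30, 1.20 and 1.10, and without cells holding late RNA of 1.63, 1.14, 0.84 and 0.74. Fcnb was lower in fine bin 4 (405 and 82.1 CPM, log2 ratio -2.30), fine bin 5 (-0.57) and fine bin 6 (-0.20), and without those cells by log2 ratios of -2.39, -0.10 and -0.14. In the later fine bins, again without those cells, the Fcnb log2 ratio was -0.17 in bin 7, -0.56 in bin 8, -0.47 in bin 9, -0.36 in bin 10, -0.25 in bin 11 and -0.53 in bin 12. In fine bins 1 to 3 it was -1.78, -0.91 and -4.62, the last from 505 and 26 UMIs. The mixtures differed there too, as 9.57% of control cells and 2.76% of the others in fine bin 3 had members at 10% or more. Fcnb was thus lower in every fine bin without cells holding late RNA, by least in fine bins 5 to 7.

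By class, neutrophil-progenitor-like cells showed the same mixture. Members took 14.2% of gene UMIs in the 1056 control cells and 5.23% in the 681 of the other library, and all 10 genes were at least 2-fold lower there (9.83% of all genes passed 2-fold in either direction and 5.76% lower), Chit1 again with enough UMIs only through the control library (191 and 18). Different clusters made up the class: cluster 9, with a member share of 28.0%, held 689 control cells and 119 others, cluster 10, with 1.10%, held 225 and 406, and cluster 15, with 1.59%, held 142 and 156. In maturing-neutrophil-like cells the shares were 29.6% and 33.6%, and 1 of 10 members passed 2-fold (5.51% of all genes). That member was Chit1, whose 171 and 94 UMIs reach the minimum through the control library.

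All other cell classes held some member UMIs. In non-neutrophil cells (HSC/MPP-, megakaryocyte-, basophil or mast cell-, B-cell progenitor- and T or NK cell-like, 1090 control and 498 other cells), which should not transcribe most of these genes, the median cell had a member share of 0.124% and 0.145%. The class medians were 0.118% and 0.137% in HSC/MPP-like, 0.126% and 0.158% in megakaryocyte-like, 0.136% and 0.154% in basophil or mast cell-like, 0.142% and 0.159% in B-cell progenitor-like and 0.195% and 0.244% in T or NK cell-like cells. The median in maturing-neutrophil-like cells was 28.9% and 33.5%. The median was higher in the library labelled Utx-deleted in each of these classes, by less than the spread between classes.

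Summed over these cells the share was 0.390% (interval 0.388% to 0.393%) and 1.22% (1.21% to 1.22%), 3.12-fold higher in the Utx-labelled library. All 9 members with enough UMIs were at least 2-fold higher (4.76% of all genes passed in either direction and 2.04% higher). A minority of cells carried that difference, since 3.03% and 8.23% of cells had a member share of 1% or more. Without cells holding 3 or more UMIs of the 5 late genes, the summed shares were 0.139% and 0.268%, the share of cells at 1% or more was 0.396% and 1.16%, and the medians were 0.123% and 0.143%. With no doublets left out, and the cells clustered and named anew, the log2 ratio of the summed shares was 0.32 in place of 1.64. How far doublets and free RNA make up the difference was not tested.

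Apart from Fcnb in the control library, the genes stood to S100a9 in broadly similar proportions in the sums over all non-neutrophil cells as in neutrophils. Those sums were lower without cells holding late RNA, so the proportions below rest in part on a minority of member-rich cells. They do not describe the background of most cells. Per 1000 S100a9 UMIs, control non-neutrophil cells held 397 Camp, 216 Ngp, 103 Lcn2, 93.2 Ltf, 57.9 Chil3 and 3.23 Fcnb UMIs, and control neutrophil-lineage cells held 482, 257, 109, 84.2, 72.8 and 6.02. In the library labelled Utx-deleted the values were 450, 245, 110, 89.98, 71.9 and 2.66 against 457, 258, 103, 78.1, 73.5 and 2.94. The S100a8 to S100a9 ratio of the non-neutrophil cells, 0.605 and 0.702, also followed the neutrophils of its own library, 0.599 and 0.706. Chit1 had 0 UMIs in the non-neutrophil cells of both libraries, which at 3 counts allows up to 0.110 and 0.216 CPM.

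At full depth a UMI of S100a9 was found in 99.9% and 100% of non-neutrophil cells, so detection alone does not mark expression of this gene. After thinning each cell to 2000 UMIs it was found in 68.5% (65.7% to 71.3%) and 72.6% (68.5% to 76.5%), with median depths before thinning of 23620.5 and 27380 UMIs, and in 100% of maturing-neutrophil-like cells, at 9015 and 9665. Thinned detection in non-neutrophil cells was 34.6% and 43.5% for Camp, 10.8% and 15.5% for Ltf, 8.49% and 16.3% for Chil3, 2.03% and 5.63% for Cd177 and 0.830% and 1.41% for Fcnb. In maturing-neutrophil-like cells Fcnb was detected in 33.7% and 27.9%.

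Monocyte-progenitor-like cells, which can transcribe some of these genes, had medians of 0.114% and 0.144%, at the level of the non-neutrophil classes. Among those with under 3 UMIs of the late genes, Fcnb stood at 24.3 CPM in the control library and 8.21 in the other, against 1.63 and 3.39 in the non-neutrophil cells filtered the same way. Per 1000 S100a9 UMIs this was 52.1 and 11.8 Fcnb UMIs, against 2.83 and 3.30, and 180 and 90.9 Chil3 UMIs, against 68.3 and 64.6. Fcnb and Chil3 were thus above the background proportions in this class, and Fcnb was again lower in the library labelled Utx-deleted. The dendritic-cell-like cluster was mixed, with 32.4% of 37 and 48.3% of 89 cells at 1% or more, and 96 control and 63 other cells stayed in clusters without a name.

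Of 25 other genes of specific and later granules or of the neutrophil surface, 24 had enough UMIs in neutrophil-lineage cells, of which 1 was at least 2-fold higher and 0 lower in the Utx-labelled library, with a median log2 ratio of 0.02 (1.28% of all genes were 2-fold higher). The one was Olfm4, olfactomedin 4, a specific granule protein present in part of the neutrophils, at 91.7 and 695 CPM. Orm1, an acute phase protein, stood at 143 and 282 and Ly6g at 372 and 561. Of the 24, 10 lay below 0, among them Slpi, a protease inhibitor, at 360 and 278, Plaur, the urokinase receptor, at 349 and 275, and Pglyrp1, a peptidoglycan recognition protein, at 1596 and 1342. None of the 10 regulators passed 2-fold, with a median of -0.04: Cebpe stood at 394 and 407, Spi1 (PU.1) at 403 and 385 and Cebpb at 222 and 150. The 8 cell cycle genes all lay below 0, between -0.45 and -0.14, and none passed 2-fold (of all genes 41.2% lay above 0, with a median of -0.05). Of the 7 other S100-named genes with enough UMIs none passed 2-fold in the lineage. S100a10 was nearest, at 11.7 and 6.06 CPM (log2 ratio -0.94), and over all kept cells it was past 2-fold, at 106 and 37.2 (-1.51). The abundant S100a6 stood at 1362 and 1068 and S100a11 at 1371 and 1440.

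The genes whose level over the 16 bin points (8 bins in each library) was most like the mean of Ltf, Camp, Ngp and Lcn2, out of 8221 genes, were Pfn1 (r = 0.994), Ppm1m (0.993) and Trem3 (0.991). For Fcnb, Chit1, Chil3 and Cd177 they were Smim6 (0.972), Entpd5 (0.970) and Klf10 (0.969), and for S100a8 and S100a9 Clec4a2 (0.995), Cebpd (0.983) and Pfn1 (0.980). The points share cells, libraries and the ordering genes, so these values describe likeness only.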

How the data were processed

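Droplet libraries of mouse bone marrow cells (10x 3′ version 3.1 with feature barcodes) were analysed from the raw UMI counts the authors deposited, 32285 genes and 15 antibody tags per cell barcode, with Cell Ranger 7.1.0 named per the file headers and the build mm10 per the submitters' processing notes. The annotation and the rule for calling cells are not given in the sources used here. The deposited counts are not normalized, and whether a library pools animals is not given in the sources used here. No column of per-sample values was left aside.

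From these counts, cells with at least 500 genes and under 10% mitochondrial UMIs were kept (349 control and 214 other barcodes failed). The automatic threshold of Scrublet did not work here (0.0134% and 0% of cells called), and instead the top 6% of scores in each library were left out (467 and 463 cells), an incomplete treatment. A hashtag was called at 100 UMIs and 5 times the other hashtag. The libraries held 122130256 and 129736034 gene UMIs in 7827 and 7883 barcodes.

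The 2000 most variable genes, without the 10 members, Kdm6a and sex-linked genes, gave 30 principal components, a graph of 15 neighbours and 22 Leiden clusters (resolution 1). Clusters were named from fixed marker lists by the highest mean z-score over markers, among classes with 3 or more markers detected in 25% of cells, with a margin of 0.25 and a check of the top 10 genes. The scoring rule was set after the files were seen, and 2 clusters stayed unnamed. Class names rebuilt here may differ from the study's.

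UMIs were summed per library and cell group and given per 1000000 gene UMIs. Log2 ratios had 1 UMI added to each sum, and the 2-fold count took in genes of 100 UMIs or more, both libraries added. No test was run, as there was 1 library a group. The maturation score was the mean log2(counts per 10000 + 1) of late genes minus that of early genes. The genes named are the 10 members, fixed lists of granule, regulator, S100 and cell cycle genes, and for each of 3 member groups the 3 genes of most similar profile; single genes of the lists, and the genes placed beside the onsets, were picked for the text after their values were seen. The members and lists were chosen with earlier results of these data known. The fine bins, their version without late RNA, medians over cells, maturing cells alone and the split of the first bin by member share were added after the data were seen. Alternatives covered the cell filter, doublets, hashtags, scaling (TMM, edgeR 4.0.16), thinning to 2000 UMIs, clustering, ordering, bins and thresholds.

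On simulated counts for all kept cells, 97.5% of 200 genes changed 4-fold passed 2-fold and 0 of 13338 unchanged genes did. Those counts held counting error alone, so the result for unchanged genes was all but fixed in advance. It gives no rate of false calls between real libraries, which also differ in cell make-up. Tools were R 4.3.3, scipy 1.17.1, scanpy 1.11.5, leidenalg 0.10.2, Python 3.11.15, Biopython 1.88, scikit-learn 1.9.0 and matplotlib 3.10.9. Promoters are RefSeq's on GRCm38.p6, the assembly that mm10 names, and gene positions are those of GENCODE M21.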

Additional observations from a re-analysis of the deposited data

How the results depend on the processing

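No paired analysis was possible because each group had 1 library. The summed member ratio over all kept, neutrophil-lineage and non-neutrophil cells kept its sign under each alternative below, but within the lineage it was -1.45 in neutrophil-progenitor-like cells and -1.17 in the first bin. Over all kept cells the log2 ratio of 0.31 was 0.31 with the stricter cell filter, 0.32 with no doublet removal, 0.27 without cells of both hashtags, 0.48 and 0.078 in hashtag 1 and hashtag 2 cells alone, 0.44 with TMM scaling, 0.38 with a total that leaves out the members and 0.25 after thinning. In neutrophil-lineage cells the 0.17 was 0.13, 0.18, 0.16, 0.22, 0.099, 0.23, 0.23 and 0.18 under the same settings in that order, 0.18 at resolution 2, 0.17 with equal bin weights and 0.18 in maturing cells alone. In non-neutrophil cells the 1.64 was 1.57, 0.32, 1.43, 1.37, 1.44, 1.66, 1.66 and 1.56 in that order, 1.73 and 1.71 at resolutions 0.5 and 2, 0.94 without cells holding late RNA and 0.23 as a median over cells, so that value rests on a minority of cells. The stricter cell filter and the setting with no doublet removal also clustered and named the cells anew. Of the 45 pairs, 32 to 40 kept the same order under the alternatives other than onset at 10% of the highest bin. At 10%, every member had already reached that level in the first control bin. The 28 pairs counted at that setting were ties in the first bin, so it cannot show whether an order was kept. The count of members past 2-fold, 1 over all cells and 1 in the lineage, was 0 and 2 in hashtag 1 cells (6.37% and 3.36% of all genes), 2 and 2 at 1.5-fold (13.8% and 10.5% of all genes) and 0 and 0 of 9 at 500 UMIs (3.91% and 2.57%), which leaves out Chit1. In hashtag 2 cells alone Ltf, Lcn2 and Camp were lower, not higher, in the library labelled Utx-deleted in the sums over all cells and over the lineage, while Lcn2 and Camp were higher there with equal bin weights (0.09 and 0.06) and in maturing cells (0.11 and 0.09). The cause of these shifts was not tested. The depth, 122130256 and 129736034 gene UMIs, does not limit the abundant members, but Chit1 had 366 and 114 UMIs in kept cells, and the missing replicate limits every comparison.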
